A study of Oryza sativa with 36 samples.

Results

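Small heat shock proteins and heat shock factors were followed through the flag leaves of WFB and CHT025, the parents, and of WFYT025, their super-hybrid rice. A gene was taken as a small heat shock protein gene where its annotation in the deposited tables reads hsp20/alpha crystallin, and as a heat shock factor gene where it reads HSF-type DNA-binding. The rule found 48 genes among 34623, of which 29 were small heat shock protein genes and 19 were heat shock factor genes. RNA was sequenced from leaves of each variety on day 1 and day 10 after flowering, from early rice and from middle rice plantings. These plantings are named the early and middle season below. There were 12 groups of 3 libraries, 36 libraries in all, and the labels name no treatment, transgene or mutation. Whether the 3 replicates of a group came from separate plants is not in the labels. The p-values therefore describe the spread between libraries alone, which may be technical. The labels also name no field, date or sequencing batch, so the season cannot be told apart from any batch that went with it.

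Small heat shock proteins are chaperones built around the alpha-crystallin domain. They bind proteins that are losing their fold and hold them in a soluble state, from which chaperones of the HSP70 and HSP100 families, which use ATP, can refold them. Their genes are usually quiet in unstressed leaves and are strongly switched on by heat, by oxidative stress, and during seed maturation. Heat shock factors are the DNA-binding proteins that recognise heat shock elements in the promoters of such genes. Plants carry many heat shock factors, some of which activate transcription and some of which repress it, and several heat shock factor genes are themselves heat-induced.

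All values are FPKM, a unit corrected for transcript length and for the mapped fragments of each library, so levels can be compared between genes. The tables hold no counts, and the sequencing depth is therefore unknown. The summed FPKM of a library ran from 532276 to 567391, and the correlation of libraries within a group, across genes on the log2(FPKM + 1) scale, was 0.9902 to 0.9956. Transcripts of the leaf markers were abundant throughout, with a summed FPKM of 5787.69 to 17749.21 for the Rubisco small subunit and 18597.46 to 67779.53 for the chlorophyll a/b-binding proteins. Transcripts annotated as glutelin and prolamin, the storage proteins of the grain, were also found. Over the 36 libraries their sums ran from 3.01 to 364.03 FPKM for glutelin and from 0.03 to 283.4 FPKM for prolamin, and replicates could differ, as in WFB on day 10 of the early season, with 8.63, 8.34 and 208.72 FPKM of glutelin. The glutelin sum was 137.47, 216.61 and 185.97 FPKM in middle-season CHT025 on day 1 and 326.88, 364.03 and 249.55 FPKM in WFB on the same day and season. The small heat shock protein sum of those WFB libraries lay between 133.29 and 153.46 FPKM, and the part of such transcripts in the results was not tested.

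Of the 48 genes, 27 had at least 1 FPKM in at least 3 libraries and were tested, 15 of them small heat shock protein genes and 12 heat shock factor genes. The other 21 genes, 14 small heat shock protein genes and 7 heat shock factor genes, stayed low. Their highest value was 2.33 FPKM, in LOC_Os01g04380, the only one of the 21 to reach 1 FPKM in any library. LOC_Os08g36700 and LOC_Os09g28200, both heat shock factor genes, were listed at 0 in every library. The gene ontology terms in the tables give response to heat for 22 of the 29 small heat shock protein genes and for 5 of the 19 heat shock factor genes. Several of the small heat shock protein genes are neighbours in locus number, with a run of 5 on chromosome 1 (LOC_Os01g04340 to LOC_Os01g04380) and a group of 4 on chromosome 3 (LOC_Os03g15960, LOC_Os03g16020, LOC_Os03g16030 and LOC_Os03g16040). Such copies can be similar in sequence, and how fragments that match several copies were assigned is not given in the sources used here, so the split of a level between neighbours is uncertain.

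**Figure D1:**
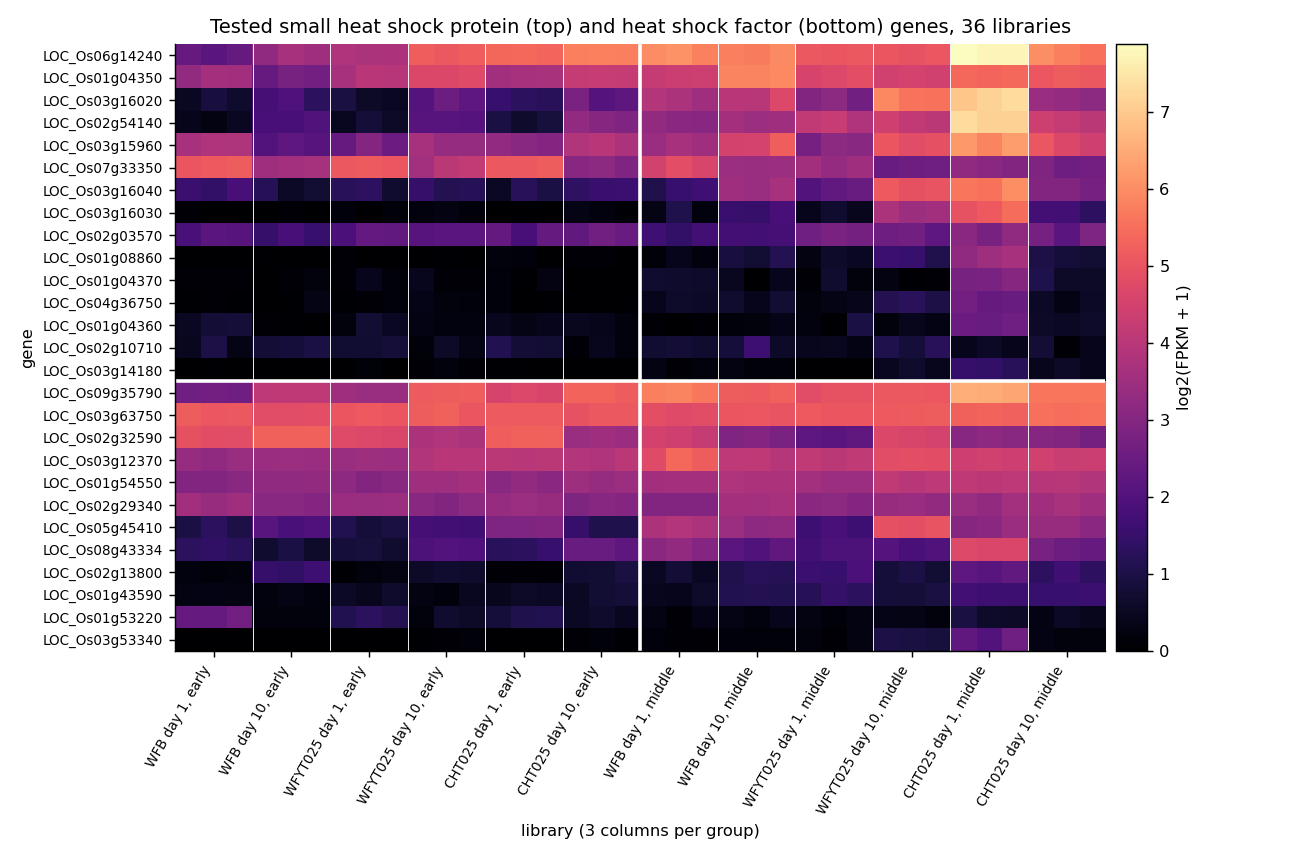
Each row is 1 of the 27 tested genes, each column 1 of the 36 libraries, and the colour is log2(FPKM + 1). The upper block holds the 15 small heat shock protein genes and the lower block the 12 heat shock factor genes, both ordered by mean level. The brightest columns of the upper block are the 3 libraries of CHT025 on day 1 of the middle season.

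One group of leaves stood apart. In middle-season CHT025 on day 1 the 29 small heat shock protein genes summed to 754.34, 712.95 and 778.96 FPKM (748.75 ± 33.4, mean ± SD, n = 3, here and below). In the other 33 libraries the sum lay between 35.62 and 226.08 FPKM, so the 3 libraries did not overlap with any other. The next groups were WFYT025 and WFB on day 10 of the middle season, with 208.6 and 198.2 FPKM, and the lowest was WFB on day 10 of the early season, with 38.99 ± 3.31 FPKM. CHT025 itself held 102.4 FPKM on day 1 of the early season and 164.1 FPKM on day 10 of the middle season. WFB on day 1 of the middle season held 142.5 FPKM. Since flag leaves hold many cell types, more RNA per cell and more cells that carry it cannot be told apart.

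The heat shock factor genes covered a narrower range. Their sum was highest in the same group, with 231.01, 223.07 and 222.59 FPKM, and again no other library overlapped. It was lowest in WFYT025 on day 1 of the early season (98.33 ± 1.83 FPKM) and 109.01 ± 0.917 FPKM in middle-season WFYT025 on day 1. On day 10 of the middle season the hybrid reached 179.57 ± 0.697 FPKM, the second highest level of the 12 groups, followed by WFB on day 1 of the middle season with 174.95 ± 11.2 FPKM. These last 2 groups overlapped, because 1 WFB library had 187.84 FPKM.

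**Figure D2:**
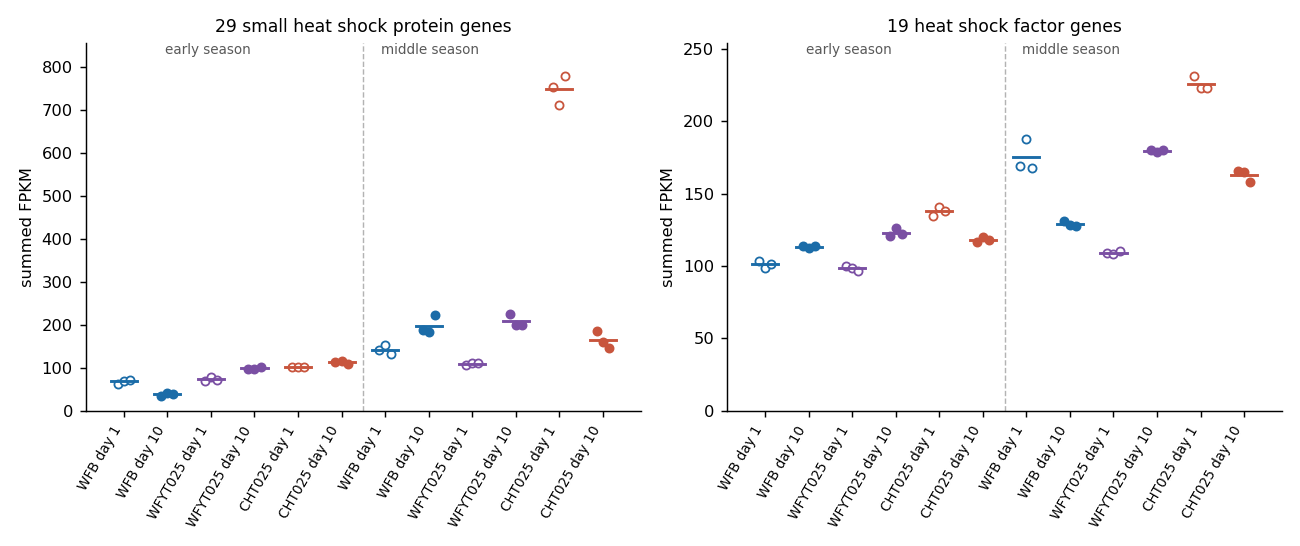
Summed FPKM of the 29 small heat shock protein genes (left) and the 19 heat shock factor genes (right), with 1 point for each library, open for day 1 and filled for day 10, and a line at the mean of each group of 3. CHT025 on day 1 of the middle season lies at 712.95 to 778.96 FPKM on the left, above a range of 35.62 to 226.08 FPKM for all other libraries.

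Gene by gene, 18 of the 27 tested genes had their highest group mean in middle-season CHT025 on day 1, against 13.7% of all 18585 tested genes. With the libraries quantile-normalised the count was 16, against 8.76% of all tested genes. The group held the maximum of 12 of the 15 small heat shock protein genes and of 6 of the 12 heat shock factor genes. These 6 include LOC_Os01g54550, with 15.8 FPKM there and 15.7 FPKM in WFYT025 on day 10 of that season, with overlapping libraries. All 3 libraries of middle-season CHT025 on day 1 lay above the other 33 for 11 small heat shock protein genes. The same held for 5 heat shock factor genes, against 5.84% of all tested genes. A total of 4 genes (LOC_Os01g04360, LOC_Os01g04370, LOC_Os03g14180 and LOC_Os03g53340), named here after their values were seen, passed the minimum level only through this group and so had to be high there. All 4 are among the 11 and 5 genes without overlap, so those counts are raised by the minimum level. Of the 23 genes that passed it without this group, 14 were highest there, against 13.1% of all genes passing in that way. Of the 21 untested genes, 9 had their highest mean there, all at low levels. Some were near 0, such as LOC_Os11g13980 with 0.0, 0.0 and 0.16 FPKM in that group. The share over all untested genes was not counted.

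The largest small heat shock protein transcript was LOC_Os06g14240, with 234.51, 210.85 and 211.44 FPKM in middle-season CHT025 on day 1. On day 10 of that season the CHT025 libraries had 64.22, 53.81 and 46.27 FPKM, a fall of the mean from 219 ± 13.5 to 54.8 ± 9.01 FPKM (log2 -1.99 ± 0.09, SE, adjusted p = 6.8e-17; log2 changes are of FPKM + 1, with p from limma, adjusted over all tested genes). Elsewhere its level graded by variety in the early season, where WFB had 4.06 ± 0.448 FPKM on day 1, WFYT025 12.8 ± 0.444 FPKM and CHT025 40.4 ± 0.685 FPKM. No libraries of these 3 groups overlapped, and CHT025 exceeded WFB by 3.03 ± 0.09 on the log2 scale (adjusted p = 1.56e-22). On day 10 of the middle season this difference between the parents was not detectable (log2 -0.02 ± 0.09, adjusted p = 0.879), with 55.2 ± 5.05 FPKM in WFB.

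LOC_Os02g54140, annotated with response to heat, had the widest range of group means on the log2(FPKM + 1) scale among the 27 tested genes. It was nearly silent on day 1 of the early season, at 0.33, 0.19 and 0.43 FPKM in WFB, at 0.4, 0.76 and 0.51 FPKM in WFYT025, and at 0.95, 0.58 and 0.82 FPKM in CHT025. In the middle season on day 1 the CHT025 libraries held 159.23, 139.22 and 138.11 FPKM, while no other library of the series exceeded 20.39 FPKM. The season difference on day 1 was highest in CHT025 (log2 6.36 ± 0.11, adjusted p = 3.66e-28). The same difference was called in WFYT025 (log2 3.46 ± 0.11, adjusted p = 3.71e-22) and in WFB (log2 2.76 ± 0.11, adjusted p = 8.52e-20). In middle-season CHT025 the gene fell by day 10, to 19.69, 17.64 and 15.65 FPKM. In the early season it rose on day 10 in all 3 varieties, to 2.64 ± 0.269 FPKM in WFB, 3.28 ± 0.0781 FPKM in WFYT025 and 7.34 ± 0.99 FPKM in CHT025.

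The chromosome 3 group carried another part of the peak. LOC_Os03g16020, annotated with response to heat and to hydrogen peroxide, had 121.89, 143.17 and 156.93 FPKM in middle-season CHT025 on day 1 and 9.83, 8.98 and 7.84 FPKM on day 10 (log2 -3.84 ± 0.19, adjusted p = 4.1e-16). Its neighbour LOC_Os03g16030 went from 30.42, 33.92 and 43.11 FPKM to 2.37, 2.27 and 1.55 FPKM (log2 -3.58 ± 0.14, adjusted p = 2.69e-18). LOC_Os03g16040 went from 49.28, 46.0 and 63.47 FPKM to 6.92, 6.65 and 5.58 FPKM (log2 -2.86 ± 0.18, adjusted p = 1.18e-13). The day 1 and day 10 libraries of CHT025 were thus separated by wide gaps in all 3 genes. LOC_Os03g15960, the fourth gene of the group, had 72.59, 57.25 and 76.09 FPKM and fell to 32.24, 24.48 and 20.41 FPKM (log2 -1.40 ± 0.17, adjusted p = 4.66e-08). A weaker transcript on chromosome 1, LOC_Os01g08860, had 8.28, 10.19 and 11.8 FPKM on day 1 and 1.01, 0.8 and 0.67 FPKM on day 10, and it lay at or below 0.16 FPKM in every library of the early season.

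In the hybrid the same 4 genes of chromosome 3 moved in the opposite direction during the middle season. LOC_Os03g16020 rose from 6.81, 7.98 and 5.23 FPKM on day 1 to 60.11, 46.98 and 46.51 FPKM on day 10 in WFYT025 (log2 2.77 ± 0.19, adjusted p = 1.59e-13). LOC_Os03g16030 rose from 0.32, 0.61 and 0.37 FPKM to 12.4, 10.07 and 10.76 FPKM (log2 3.08 ± 0.14, adjusted p = 1.23e-17). LOC_Os03g16040 rose from 3.16, 3.97 and 4.59 FPKM to 33.65, 29.7 and 31.37 FPKM (log2 2.74 ± 0.18, adjusted p = 7.2e-14). The day 10 libraries of the hybrid lay above its day 1 libraries without overlap, yet below the day 1 libraries of CHT025. LOC_Os03g15960 rose from 7.0 ± 1.25 to 29.2 ± 2.34 FPKM (log2 1.92 ± 0.17, adjusted p = 2.39e-11). The difference between the day changes of WFYT025 and CHT025 in the middle season was 6.61 ± 0.27 for LOC_Os03g16020 (adjusted p = 1.78e-18) and 6.66 ± 0.20 for LOC_Os03g16030 (adjusted p = 3.54e-21), both on the log2 scale.

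In WFB of the middle season all 4 genes of the group were called higher on day 10, and LOC_Os03g16020 had the smallest change of them. LOC_Os03g16040 went from 1.12, 1.9 and 2.19 FPKM on day 1 to 10.48, 9.57 and 11.91 FPKM on day 10 (log2 2.11 ± 0.18, adjusted p = 2.97e-11). LOC_Os03g15960 went from 9.82, 11.91 and 10.51 FPKM to 21.87, 22.26 and 36.01 FPKM (log2 1.20 ± 0.17, adjusted p = 2.59e-07). Neither gene had overlapping days, nor had LOC_Os03g16030, which rose by log2 1.08 ± 0.14 (adjusted p = 1.5e-07). LOC_Os03g16020 had 13.77, 12.29 and 10.53 FPKM on day 1 and 15.05, 14.81 and 24.92 FPKM on day 10 (log2 0.51 ± 0.19, adjusted p = 0.0207). This call for LOC_Os03g16020 rested on the third library of day 10, without which the change was 0.28 and the adjusted p was 0.219, and it was also lost in the other fits named in the closing section.

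**Figure D3:**
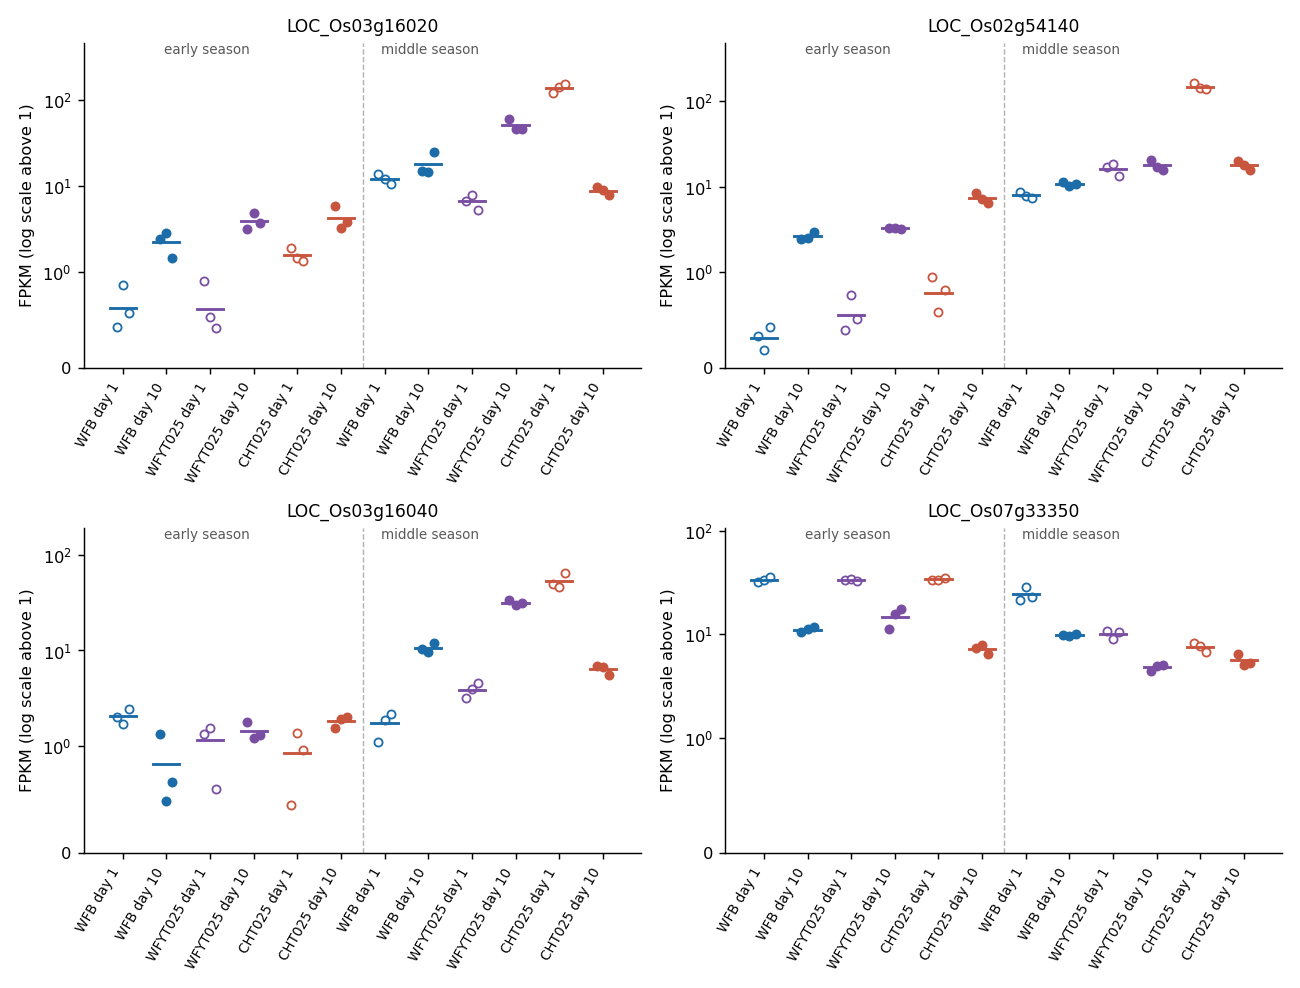
FPKM of 4 small heat shock protein genes in every library, on an axis that is linear below 1 and logarithmic above 1, with open points for day 1, filled points for day 10 and a line at each group mean. LOC_Os03g16020, LOC_Os02g54140 and LOC_Os03g16040 peak in middle-season CHT025 on day 1, at group means of 141, 146 and 52.9 FPKM, whereas LOC_Os07g33350 is high on day 1 of the early season, at 33.3 to 33.7 FPKM.

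A few small heat shock protein genes went their own way. LOC_Os07g33350, also annotated with response to heat, had nearly the same level in all 3 varieties on day 1 of the early season, with 31.96, 33.54 and 35.46 FPKM in WFB, 33.11, 34.27 and 32.4 FPKM in WFYT025, and 33.09, 32.99 and 35.06 FPKM in CHT025. The libraries of the 3 varieties overlapped. It was the largest small heat shock protein transcript of WFB in that group, with 48.9% of the summed FPKM. The gene fell from day 1 to day 10 in all 6 combinations of variety and season, which 0.43% of all tested genes did. Its falls on the log2 scale ran from -0.38 ± 0.11 in CHT025 of the middle season to -2.08 ± 0.11 in CHT025 of the early season. In middle-season CHT025 on day 1 it held 8.23, 7.65 and 6.68 FPKM, lower than in the early season by log2 -2.03 ± 0.11 (adjusted p = 1.74e-16). LOC_Os01g04350 was highest in WFB on day 10 of the middle season, with 56.86, 57.61 and 60.99 FPKM, against 40.89, 39.84 and 41.6 FPKM in CHT025 on day 1 of that season. LOC_Os02g03570, annotated with responses to heat, hydrogen peroxide and several metal ions, had the smallest ratio of highest to lowest group mean among the 10 most abundant small heat shock protein genes, with group means from 2.05 to 7.27 FPKM. The other 5 tested small heat shock protein genes were weak, with group means of at most 6.25 FPKM.

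Counted over the tested genes, the change from day 1 to day 10 in CHT025 of the middle season was mostly downward. It was higher on day 10 for 1 gene and lower for 20 of 27, against 23.1% and 20.5% of all tested genes. The gene that rose was the heat shock factor gene LOC_Os03g63750. At least 2-fold lower were 12 of the 27, against 2.18% of all tested genes. Among the small heat shock protein genes 14 of 15 were lower, with a median log2 change of -1.99, and the median of all tested genes was 0.01. A rule set after the data were seen kept only genes with at least 1 FPKM in 3 libraries outside the 2 groups compared. With it 1 of 23 was higher and 16 were lower, against 23.4% and 20% of all genes passing in that way. At least 2-fold lower were 9 of the 23, and their median log2 change was -0.44. The 2-fold share of all genes passing in that way was not computed, here and below. LOC_Os01g04360, LOC_Os01g04370 and LOC_Os03g14180, among the 14 small heat shock protein genes called lower, did not pass this rule. One of the calls, for LOC_Os02g03570 (log2 -0.44 ± 0.16, adjusted p = 0.0297), was lost without the second library of day 10, where the change was -0.23 and the adjusted p was 0.29.

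The other 5 day comparisons were mixed. In WFYT025 of the middle season 15 genes were higher on day 10 and 4 were lower, against 47.7% and 16.6% of all tested genes, and the split was 13 to 8 after quantile normalisation. In WFB of the middle season 12 were higher and 7 lower, against 46% and 20.6%. In the early season the counts were 12 higher and 5 lower in WFYT025, against 33% and 35%. For CHT025 they were 11 higher and 7 lower, against 25.1% and 39.9%, and for WFB 8 higher and 10 lower, against 25% and 46.1%. The median residual SD of all tested genes was 0.1062 on the log2 scale, and 64.3% to 71.1% of all tested genes were called in these 5 comparisons. The higher and lower counts of WFB in both seasons, and of WFYT025 in the middle season, lay near the background shares. The largest falls outside CHT025 of the middle season were those of the heat shock factor gene LOC_Os01g53220 in WFB of the early season and of LOC_Os07g33350 in CHT025 of the early season.

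**Figure D4:**
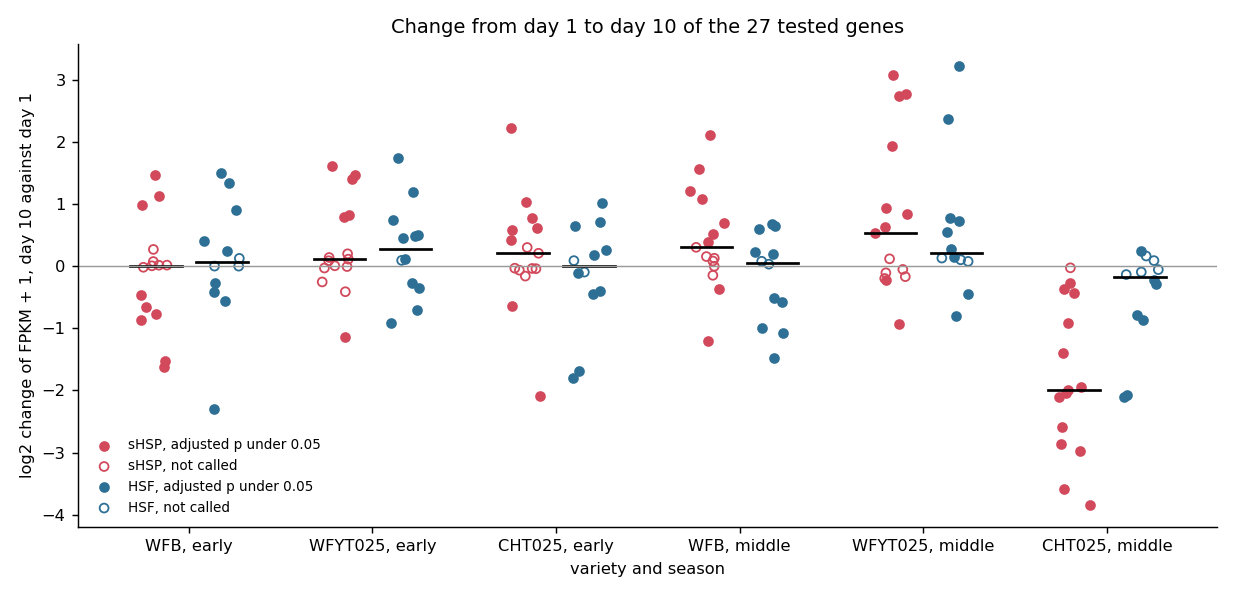
Log2 change of FPKM + 1 from day 1 to day 10 for the 27 tested genes in each variety and season, in red for small heat shock protein genes and in blue for heat shock factor genes, filled where the adjusted p was under 0.05, with a black line at each median. In CHT025 of the middle season the small heat shock protein median is at -1.99.

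The most abundant heat shock factor transcripts were LOC_Os09g35790, LOC_Os03g63750, LOC_Os02g32590 and LOC_Os03g12370. LOC_Os09g35790, annotated with negative regulation of transcription, had 94.7, 89.35 and 84.55 FPKM in middle-season CHT025 on day 1 and 48.7, 49.41 and 47.87 FPKM on day 10 (log2 -0.86 ± 0.05, adjusted p = 2.44e-14). In the early season it rose by day 10 in each variety, in WFB from 5.12 ± 0.148 to 16.2 ± 0.269 FPKM, in WFYT025 from 9.89 ± 0.518 to 35.4 ± 0.872 FPKM, and from 23.7 ± 0.952 to 37.7 ± 1.69 FPKM in CHT025. Its order on day 1 of the early season, with WFB lowest and CHT025 highest, was that of LOC_Os06g14240, and the difference between the parents was log2 2.01 ± 0.05 (adjusted p = 2.14e-24). LOC_Os03g63750, annotated with response to heat, was by contrast nearly level, with group means between 27.2 and 44.7 FPKM.

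LOC_Os02g32590, a heat shock factor gene annotated with response to heat, had its 2 highest groups in the early season. In CHT025 it was high on day 1 of the early season (36.06, 38.0 and 37.01 FPKM) and low on day 1 of the middle season (7.42, 8.04 and 7.47 FPKM; log2 -2.14 ± 0.07, adjusted p = 5.24e-22). Its highest group was WFB on day 10 of the early season, with 38.1, 37.48 and 37.74 FPKM. In the hybrid it fell on day 10 of the early season, from 24.9 ± 1.21 to 12.8 ± 0.567 FPKM. In the middle season it rose there, from 3.68, 3.63 and 3.9 FPKM to 24.43, 23.35 and 22.47 FPKM (log2 2.37 ± 0.07, adjusted p = 7.21e-23). For the hybrid the interaction of day and season was log2 3.27 ± 0.10 (adjusted p = 1.17e-22). In WFB of the middle season it fell, from 19.9 ± 1.87 to 6.48 ± 0.607 FPKM (log2 -1.48 ± 0.07, adjusted p = 9.62e-18).

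LOC_Os05g45410, annotated with response to reactive oxygen species and with positive regulation of transcription, was highest in the hybrid on day 10 of the middle season. It had 2.11, 2.58 and 2.16 FPKM on day 1 and 28.92, 28.34 and 31.33 FPKM on day 10 there (log2 3.22 ± 0.11, adjusted p = 9.76e-21). The next group, WFB on day 1 of the middle season, had 12.57, 13.93 and 12.39 FPKM and did not overlap with it. In CHT025 of the middle season no change was called (8.21 ± 1.31 and 8.76 ± 0.912 FPKM, log2 0.09 ± 0.11, adjusted p = 0.571). In early-season CHT025 the gene fell, from 6.5 ± 0.287 to 1.35 ± 0.413 FPKM (log2 -1.69 ± 0.11, adjusted p = 6.67e-14). LOC_Os01g54550, which carries the same terms, rose in the hybrid of the middle season, from 10.4 ± 0.569 to 15.7 ± 0.945 FPKM (log2 0.55 ± 0.06, adjusted p = 2.39e-09).

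Several less abundant heat shock factor genes were also highest in middle-season CHT025 on day 1. LOC_Os08g43334 had 25.48, 23.88 and 23.94 FPKM in middle-season CHT025 on day 1 and 5.79, 4.78 and 4.31 FPKM on day 10 (log2 -2.10 ± 0.10, adjusted p = 2.86e-16), and no other library exceeded 8.78 FPKM. LOC_Os02g13800 had 3.75, 3.44 and 4.03 FPKM in that group, against 0.07, 0.08 and 0.07 FPKM in CHT025 on day 1 of the early season (log2 2.14 ± 0.10, adjusted p = 6.77e-18). LOC_Os03g53340, chosen after its values were seen, had 3.9, 3.1 and 5.07 FPKM there and was listed at 0 in every day 1 library of the early season. LOC_Os01g43590, annotated with responses to osmotic stress and abscisic acid, was also highest there, at 2.12 ± 0.11 FPKM, close to 1.92 ± 0.0681 FPKM on day 10. LOC_Os03g12370, annotated with response to heat, peaked instead in WFB on day 1 of the middle season, at 26.12, 41.71 and 35.16 FPKM. LOC_Os02g29340, a heat shock factor gene with no stress term in the tables, stayed between group means of 6.75 and 11.4 FPKM. LOC_Os01g53220, also chosen after its values were seen, was highest in WFB on day 1 of the early season, with 4.38, 4.27 and 5.36 FPKM, and fell to 0.16, 0.14 and 0.15 FPKM on day 10 (log2 -2.30 ± 0.11, adjusted p = 8.56e-18).

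**Figure D5:**
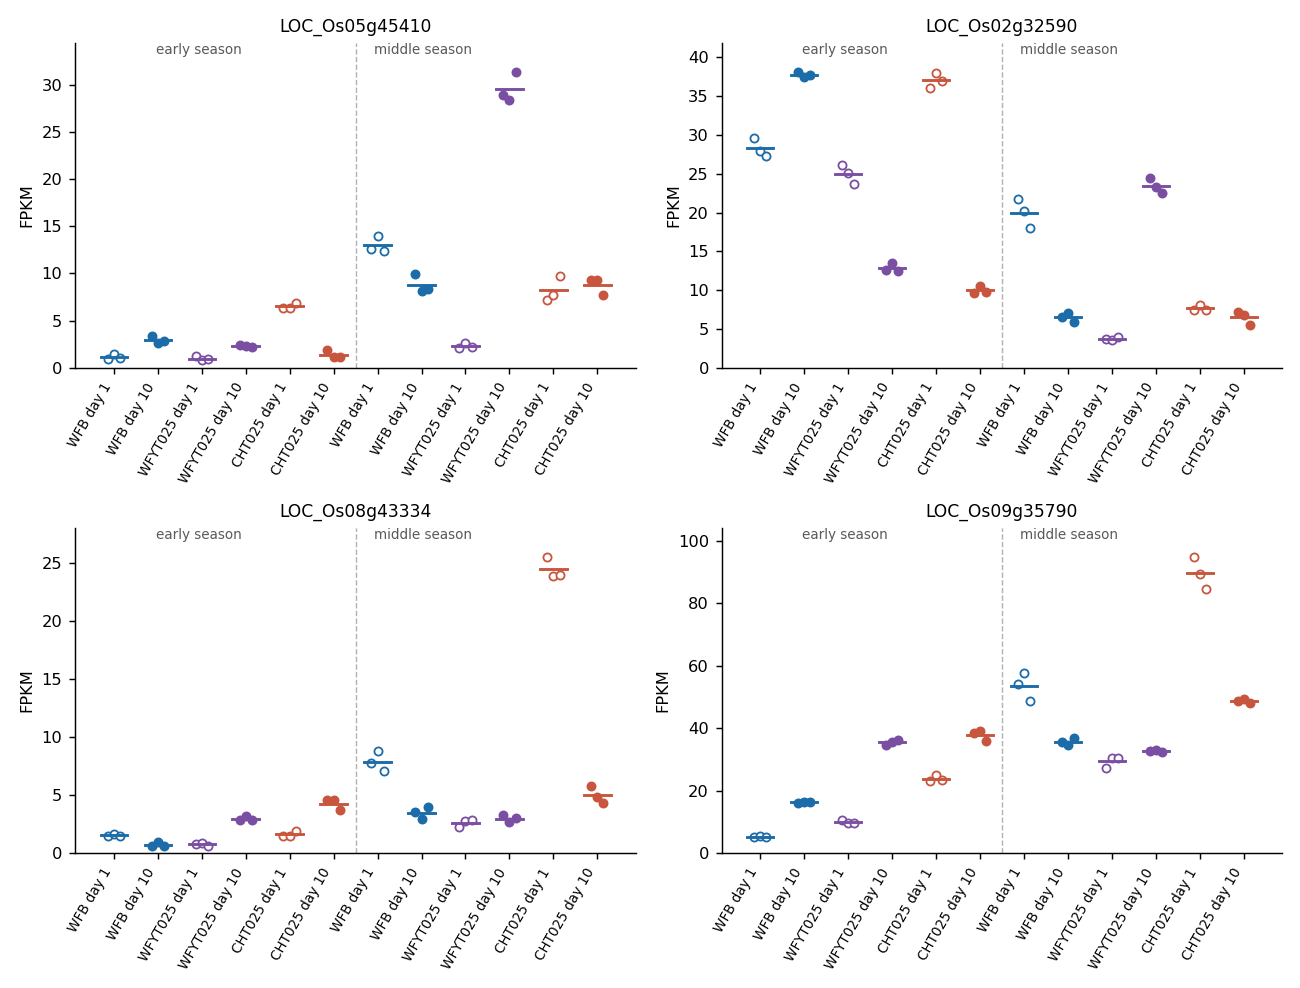
FPKM of 4 heat shock factor genes in every library, with open points for day 1, filled points for day 10 and a line at each group mean. LOC_Os08g43334 and LOC_Os09g35790 peak in middle-season CHT025 on day 1 (24.4 and 89.5 FPKM), and LOC_Os05g45410 peaks in WFYT025 on day 10 of that season (29.5 FPKM).

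Comparing the seasons asks how these transcripts differ between the early and middle plantings, which cannot be told apart from any batch that went with them. In CHT025 on day 1, 22 of 27 were higher and 4 lower, against 40.5% and 31.5% of all tested genes. At least 2-fold higher were 17 of the 27, against 9.33%, and the median of the 15 small heat shock protein genes was a log2 difference of 2.46, against 0.06 for all tested genes. With only the genes that pass the minimum outside the groups compared, 18 of 23 were higher and 4 lower. Of all genes passing in that way, 40.1% were higher and 31.7% lower. Of the 23, 13 were at least 2-fold higher, and their median log2 difference was 1.74. In WFB on day 1 the counts were 16 higher and 7 lower, against 33.2% and 45.2%, and in WFYT025 they were 15 and 4, against 30.1% and 44.1%. On day 10 they were 18 and 2 in WFB, against 47.7% and 20.2%, and 18 and 2 in CHT025, against 48.3% and 15.9%. In WFYT025 on day 10 they were 16 and 2, against 38.6% and 25.2%, with a split of 15 to 6 after quantile normalisation. The day 1 and day 10 comparisons of a variety share no library, and 8 of the 27 genes, LOC_Os02g54140 and LOC_Os03g16020 among them, were higher in the middle season in all 6 season comparisons, as were 7.43% of all tested genes.

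The next comparison is of the day change between the seasons, tested as an interaction. Against the early season, the day change of CHT025 in the middle season was more negative for 19 genes and more positive for 5 (21% and 36.1% of all tested genes). With only the genes that pass the minimum outside the groups compared, 15 of 23 were more negative and 5 more positive. Of all genes passing in that way, 20.5% were more negative and 36.7% more positive. For WFB it was more positive for 11 and more negative for 8 (53.5% and 23.9% of all tested genes), a split of 10 to 11 after quantile normalisation. For WFYT025 the counts were 13 and 6 (47.4% and 22.6% of all tested genes). In the middle season, the day change of CHT025 was below that of WFB for 21 genes and above it for 4. Of all tested genes, it was below for 38.8% and above for 17.9%. With the outside minimum it was below for 17 of 23 and above for 4 (38.6% and 17.9% of all genes passing in that way). The day change of WFYT025 was above that of CHT025 for 19 and below it for 2 (39.8% and 12.7% of all tested genes). With the outside minimum it was above for 13 of 21 and below for 2 (39.7% and 12.8% of all genes passing in that way). It was above that of WFB for 13 and below it for 4 (26.5% and 24.1% of all tested genes), a split of 10 to 6 after quantile normalisation. These 3 comparisons between varieties were added after the data were seen, and each pair of them shares the 6 libraries of 1 variety.

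Of the 4 comparisons between the parents, the one on day 1 of the middle season called the most genes. It uses the same libraries of middle-season CHT025 on day 1 as the middle-season day change, the day 1 season difference and the interaction of CHT025. The mid-parent comparison of that day and the variety differences with CHT025 use them too. These results are therefore not independent of each other. On that day CHT025 was higher than WFB for 22 of 27 genes and lower for 4, against 52.5% and 22.8% of all tested genes. At least 2-fold higher were 17 genes, against 9.02%, and the median of the small heat shock protein genes was a log2 difference of 2.18, against 0.22 for all tested genes. With only the genes that pass the minimum outside the groups compared, 18 of 23 were higher and 4 lower. Of all genes passing in that way, 52.4% were higher and 22.7% lower. Of the 23, 13 were at least 2-fold higher, and their median log2 difference was 1.15. LOC_Os03g16030 showed the largest difference (0.26, 1.09 and 0.18 FPKM in WFB, log2 4.64 ± 0.14, adjusted p = 3.42e-22). Genes higher in WFB at this time included LOC_Os07g33350, with 24.2 ± 3.57 FPKM against 7.52 ± 0.783 FPKM, and LOC_Os03g12370, with 34.3 ± 7.83 FPKM against 20.3 ± 0.507 FPKM. On day 10 of the same season 12 genes were higher in CHT025 and 5 lower, against 33.9% and 23.4%. In the limma fit on log2(FPKM + 1), 0 of the 27 genes differed at least 2-fold, whatever their p. Of all tested genes, 8.74% were called and at least 2-fold different in that comparison. The pseudocount of 1 lowers such ratios, and the FPKM means of some genes did differ more than 2-fold. LOC_Os02g03570 had 2.31, 2.25 and 2.41 FPKM in WFB and 5.65, 3.52 and 6.38 FPKM in CHT025. LOC_Os03g16020 had 15.05, 14.81 and 24.92 FPKM in WFB and 9.83, 8.98 and 7.84 FPKM in CHT025. In the early season CHT025 was higher for 9 and lower for 3 genes on day 1, against 31.4% and 28%, and higher for 14 and lower for 5 on day 10, against 37.5% and 26.8%.

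The hybrid was compared with its parents at each time. On day 1 of the middle season WFYT025 lay below the mean of its parents on the log2 scale for 20 of 27 genes and above it for 3, against 49.9% and 14.6% of all tested genes. At least 2-fold below were 14, against 4.23%. With only the genes that pass the minimum outside the groups compared, 16 of 23 were below, 12 of them at least 2-fold, and 3 above. Of all genes passing in that way, 49.9% were below and 14.6% above. LOC_Os08g43334, for example, had 2.61 ± 0.312 FPKM in the hybrid, 7.87 ± 0.864 FPKM in WFB and 24.4 ± 0.907 FPKM in CHT025. Against WFB alone the hybrid was higher for 8 genes and lower for 12, against 25.4% and 35.5% of all tested genes. Against CHT025 alone it was higher for 1 and lower for 24, against 13.3% and 60.4%. Both comparisons cover the 4 genes that passed the minimum only through middle-season CHT025 on day 1. A total of 11 genes were below both parents and 0 above both in the limma fit, against 23.6% and 5.7% of all tested genes, and both counts were the same at an unadjusted p under 0.05. These 11 included the small heat shock protein genes LOC_Os06g14240, LOC_Os03g15960 and LOC_Os03g16020 and the heat shock factor genes LOC_Os02g32590, LOC_Os03g12370, LOC_Os05g45410, LOC_Os08g43334 and LOC_Os09g35790. The 11 also held LOC_Os01g04370 and LOC_Os03g14180, which passed the minimum only through middle-season CHT025 on day 1. Both had to be high in that parent, so the count of 11 is raised by the minimum level.

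On day 10 of the middle season the hybrid exceeded both parents for 9 genes and lay below both for 5, against 10.8% and 15.8% of all tested genes. LOC_Os03g16020 had 51.2 ± 7.72 FPKM in WFYT025, 18.3 ± 5.77 FPKM in WFB and 8.88 ± 0.999 FPKM in CHT025, with no overlap between the hybrid and either parent. LOC_Os05g45410, LOC_Os02g32590, LOC_Os03g16030, LOC_Os03g16040, LOC_Os01g08860 and LOC_Os03g12370 were among the 9. Against the mean of the parents 13 genes were higher and 10 lower, against 20.7% and 34%. On day 1 of the early season 1 gene was higher and 7 lower than that mean, against 16.5% and 23.3%, with a split of 2 to 5 after quantile normalisation. On day 10 of the early season 9 were higher and 4 lower, against 26.6% and 14.8%. Outside both parents were 4 genes on day 1 of the early season and 3 on day 10, against 12.2% and 9.99% of all tested genes. The 4 were LOC_Os01g04350, above both parents, and LOC_Os02g32590, LOC_Os03g15960 and LOC_Os08g43334, below both, and the 3 were LOC_Os01g04350, LOC_Os03g63750 and LOC_Os07g33350, all above both. The count of 4 fell to 1 without the third WFYT025 library of day 1.

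Other chaperone genes were counted from lists made by annotation text, for the change from day 1 to day 10 in middle-season CHT025. Of all tested genes 20.5% were lower and 23.1% higher in that comparison, with a median log2 change of 0.01, and 2.18% were at least 2-fold lower. Of the 17 tested genes of the DnaK (HSP70) family, 11 were lower on day 10 in middle-season CHT025 and 0 higher in the limma fit (0 also at an unadjusted p under 0.05), with a median log2 change of -0.47, and 5 were at least 2-fold lower. The summed FPKM of all 31 HSP70 genes was 2729.27, 2834.87 and 2795.39 in middle-season CHT025 on day 1 and at most 1991.71 in any other library. Chaperonin genes, which encode folding cages, were lower for 5 of 7, of which 2 at least 2-fold, and higher for 1. DnaJ genes, whose products are partners of HSP70, were lower for 27 of 87 and higher for 12, with 2 at least 2-fold lower and a median log2 change of -0.08. Of 69 tested genes with heat shock protein in their annotation, 26 were lower and 7 higher, with 3 at least 2-fold lower and a median log2 change of -0.16. This list shares 59 genes with the DnaJ list before the minimum level was applied. One of those 3, LOC_Os05g44340, chosen after its values were seen and annotated as an HSP101 protein, a disaggregase, had 44.43, 45.45 and 51.13 FPKM in middle-season CHT025 on day 1 and at most 13.95 FPKM in any other library. A further list of 6 genes annotated as heat stress transcription factor or heat shock factor, made after the files were seen, had 4 of 5 tested genes lower and 0 higher in the limma fit, and 0 higher at an unadjusted p under 0.05. Within it LOC_Os03g06630, also chosen after its values were seen, was the most abundant, with group means from 127.8 to 507.8 FPKM, and its highest groups, WFYT025 and CHT025 on day 10 of the early season, overlapped.

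In the authors' deposited table of CHT025 in the middle season, 16 of the 48 genes were marked significant and higher on day 1 and 0 higher on day 10, against 2.59% and 1.78% of all 34623 genes. The authors' deposited table of WFYT025 in the middle season marked 9 genes as higher on day 10 and 2 as higher on day 1, against 6.43% and 2.09%. For WFB in the middle season the authors' deposited table marked 6 as higher on day 10 and 4 as higher on day 1, against 5.64% and 3.69%. In the early season the authors' deposited table of WFB marked 6 and 5 in the same order, against 5.2% and 9.64%. The authors' deposited table of CHT025 in the early season marked 4 and 4, against 3.3% and 5.64%, and the authors' deposited table of WFYT025 in that season marked 6 and 2, against 5.54% and 5.31%.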

How the data were processed

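Per the labels' protocols, paired-end Illumina libraries were made from fragmented mRNA of Trizol extracts. The submitters' processing notes name HISAT, StringTie and edgeR; the genome build is not given in the sources used here, nor is the annotation. The values used are the FPKM the authors deposited for each library. The authors' deposited tables also give, for each variety and season, a log2 ratio of day 1 over day 10, a q-value and a significance mark, of which the sign and the mark were used. One broken and 7534 recurring lines of the WFYT025 early season table were dropped, and 34623 genes common to all tables were kept. Depth is unknown, so no counting error can be given.

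The 18585 genes reaching 1 FPKM in 3 or more of the 36 libraries were fitted on log2(FPKM + 1) with limma 3.58.1 in R 4.3.3, with 12 group means, a trended variance and 24 residual degrees of freedom. The pseudocount of 1 understates changes of low genes. Benjamini-Hochberg adjustment ran over all tested genes, and adjusted p under 0.05 was called. The fit was tested on simulated data. The mid-parent value is the mean of the parents on the log2 scale. Values are mean ± SD of 3 libraries. Named genes are the 10 most abundant tested genes of each class and the 6 largest called changes of each comparison family; others are named as chosen later. Members and lists were chosen with earlier results of these data known. Alternatives were a pseudocount of 0.1, no filter, quantile normalisation, rescaling to TPM, a fit of the compared groups alone, the replicate number as a block, and leaving out each library.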

Additional observations from a re-analysis of the deposited data

Results flagged for a closer look

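The 6 genes with the largest season differences of the day change are given here, each called by the limma interaction test in 2 or 3 varieties. Values are the day change of the middle season minus that of the early season on the log2 scale. In CHT025 the difference was -5.20 for LOC_Os02g54140, -4.87 for LOC_Os03g16020, -3.79 for LOC_Os03g16030 and -3.44 for LOC_Os03g16040. Among the heat shock factor genes of CHT025 it was -3.12 for LOC_Os08g43334 and 1.58 for LOC_Os02g32590. In WFYT025 the 3 chromosome 3 genes had the opposite sign, at 1.17 for LOC_Os03g16020, 2.96 for LOC_Os03g16030 and 2.54 for LOC_Os03g16040. The WFYT025 value was -1.35 for LOC_Os02g54140, 3.27 for LOC_Os02g32590 and -1.06 for LOC_Os08g43334. In WFB it was -1.08 for LOC_Os02g54140, 1.07 for LOC_Os03g16030 and 2.87 for LOC_Os03g16040. For the heat shock factor genes of WFB it was -1.89 for LOC_Os02g32590 and -0.43 for LOC_Os08g43334. With a pseudocount of 0.1, LOC_Os03g16020 in WFYT025 had 0.41 (adjusted p = 0.33) and LOC_Os08g43334 in WFB had -0.14 (adjusted p = 0.56). Groups of 3 libraries are too small for an outlier test.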

How the results depend on the processing

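Of 264 counts of called genes recomputed under the alternatives, for 33 counts, 261 stayed within 1.5 times the reported count. Genes outside both parents on day 1 of the early season fell from 4 to 2, and on day 10 of that season from 3 to 1, when only the compared groups were fitted. With libraries left out in turn these counts ran from 1 to 4 and from 2 to 3. For single genes, direction was compared only where the gene was called in the reported fit. Of 6317 such values, called or not, 5970 kept their side of the threshold, 198 lost the call and 145 gained it. Another 4, all called in the reported fit, changed sign, each under quantile normalisation. These were, on the log2 scale, LOC_Os02g29340 (-0.0661, adjusted p = 0.422) and LOC_Os09g35790 (-0.1476, adjusted p = 0.0157) for the day change of WFYT025 in the middle season, and LOC_Os03g63750 for the day change of CHT025 in the early season (0.0375, adjusted p = 0.475) and for the season difference of WFB on day 10 (-0.0024, adjusted p = 0.967). Quantile normalisation also moved the median of all tested genes, for the day change of WFYT025 in the middle season from 0.18 to -0.07; the cause was not tested. The day change of LOC_Os03g16020 in WFB of the middle season lost its call with a pseudocount of 0.1 (adjusted p = 0.0683), quantile normalisation (adjusted p = 0.105) and the compared groups alone (adjusted p = 0.0814).

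Same-numbered libraries did not deviate together (r from -0.293 to 0.352, with all 3 pairs over 0.1 in 0 of 24 contrasts). With the replicate number as a block every count stayed within 1.5 times, for example 21 genes called for the day change of CHT025 in the middle season, with 4 calls of single genes gained and 3 lost. Without counts, low levels carry an unknown counting error.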
